A study of Arabidopsis thaliana with 12 samples.

Results

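The phosphate starvation response was examined through 10 genes of Arabidopsis thaliana: the noncoding RNAs IPS1 and AT4, the regulators PHO2, SPX1 and SPX3, the phosphate transporters PHT1;1 and PHT1;4, the lipid enzymes SQD2 and MGD3, and the phosphatase PS2. They were taken by their gene identifiers from the 32833 genes of the count table, and all 10 were found. The genes were picked with their levels in these genotypes known, so their differences from wild type are given as a description, and the test calls counted among them below support nothing. Poly(A) RNA was sequenced from whole seedlings of the Col-0 ecotype, 16 days old, grown on diluted MS medium in constant light. No treatment was applied, so the seedlings of every genotype were on this nutrient medium and no phosphate starvation was imposed.

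There were 3 libraries each of wild type (WT), *se-1*, *cbp20* and *cbp80*, and each replicate came from its own pool of plants. SERRATE (SE) is an RNA processing factor, and *se-1* is a hypomorphic allele with a small deletion, so some SE function remains. CBP20 and CBP80 are the subunits of the nuclear cap-binding complex. The methods of the study name the *cbp20* line as cbp20-1. The allele of *cbp80* was not given in the sources used here. CBP20 itself was at 36.3 ± 3.04 CPM (counts scaled to 1e6 per library, mean ± SD of 3 libraries here and throughout) in WT, and at 12.4 ± 1.21 CPM in *cbp20*. The SE gene was at 83.4 ± 3.71 CPM in WT, compared with 80.1 ± 1.79 CPM in *se-1*, and CBP80 at 40.3 ± 4.02 CPM in WT, compared with 36.0 ± 4.13 CPM in *cbp80*, so a gene-level count did not separate these mutants from WT. Depth lay between 18565569 and 27068656 pairs on genes in each library, and 3 counts, taken as the floor of detection, correspond to 0.111 to 0.162 CPM. This floor covers counting error only.

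When phosphate is short, the transcription factors PHR1 and PHL1 bind an element called P1BS in the promoters of starvation genes. SPX proteins bind inositol pyrophosphates when phosphate is plentiful and then hold PHR1 back. PHR1 also turns on the miR399 genes, and miR399 cleaves the mRNA of PHO2, an enzyme that marks phosphate transporters and exporters for destruction. IPS1 and AT4 carry a site that miR399 binds but cannot cleave, and they act as decoys for it.

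The sequences of this circuit are shown first, because they join the miRNA, its decoys and its target among the 10 genes. All were read from the RefSeq TAIR10.1 genome, on which the 10 genes have the same start and end as in the count table. The annotation holds miR399c-5p, which has another seed and was left out of the search. The other 6 mature miR399 products share the seed GCCAAAG (bases 2 to 8), here in capitals in 2 of them, miR399b at chr1:23345387-23345407 on the minus strand and miR399a at chr1:10227165-10227185 on the plus strand:
miR399b: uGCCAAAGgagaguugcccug
miR399a: uGCCAAAGgagauuugcccug

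The sites are given as DNA of the transcript strand, with the bases that pair with the miRNA in capitals. IPS1 has its site at chr3:3051224-3051247 on the plus strand, and AT4 at chr5:895149-895172 on the plus strand. Although both are named noncoding here, the annotation gives them coding regions of 243 and 213 bases, and both sites lie in these. In both, 18 of the 21 bases of miR399b paired, and 3 extra bases lay opposite the middle of the miRNA, after its base 10. Without these extra bases the best alignment had 8 mismatches in IPS1 and 9 in AT4. In PHO2 a search without a bulge found 5 sites of 19 paired bases, all before the annotated coding region, of which the site at chr2:14281884-14281904 on the minus strand (against miR399a) is shown:
IPS1: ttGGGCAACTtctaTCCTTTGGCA
AT4: ttGGGCAACTtcgaTCCTTTGGCA
PHO2: ttGGGCAAATCTCCTTTGGCA

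P1BS was searched as GNATATNC, which is its own reverse complement, in the 1000 bases before each annotated start. It was found before 8 of the 10 genes, of which 5 had at least 2 copies, and before 6551 of 32546 nuclear genes (20.13%), of which 915 (2.811% of all) had at least 2. PHT1;4 and MGD3 had 0 in this window. Among 67 other genes of phosphate signalling, transport and remobilization, described below, 36 (53.73%) had the motif. The 4 examples below are of genes with low levels in the mutants, with the motif in capitals. They lie at chr3:3050399-3050422 on the plus strand, chr5:894548-894571 on the plus strand, chr2:18606312-18606335 on the plus strand and chr1:27466550-27466573 on the minus strand, where the motif begins 582, 26, 90 and 217 bases before the start of the gene:
IPS1: tggtaacgGCATATTCcatcggat
AT4: ggtaattgGCATATTCcttttaga
SPX3: aaagctaaGCATATCCgctttcat
PS2: gggtaacgGAATATTCttctctta

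In WT, levels per kilobase of exon (CPM per kb) spanned 45.8-fold. AT4 was highest at 159 ± 42.6 CPM per kb, followed by SPX1 at 106 ± 20.2, SQD2 at 77.5 ± 9.16 and PHO2 at 54.9 ± 5.18 CPM per kb. IPS1 followed at 27.1 ± 6.73, PS2 at 21.7 ± 5.03, PHT1;4 at 19.5 ± 3.69 and PHT1;1 at 19.0 ± 0.842 CPM per kb, and the WT libraries of neighbours in this group of 4 overlapped. MGD3 at 3.79 ± 0.877 and SPX3 at 3.48 ± 1.18 CPM per kb were lowest and overlapped as well. The libraries of AT4 and SPX1 also overlapped, as did those of SPX1 and SQD2. In *se-1* the order was another: PHO2 was highest at 48.1 ± 0.131 CPM per kb and SQD2 next at 41.0 ± 2.64, while AT4 stood at 16.3 ± 1.81 CPM per kb.

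The decoy IPS1 (AT3G09922, chromosome 3 from 3050989 to 3051530, intronless) was at 10.5, 16.9 and 16.7 CPM in the 3 WT libraries, at 1.51, 0.694 and 1.07 CPM in *se-1*, at 2.86, 2.98 and 3.38 CPM in *cbp20*, and at 4.46, 4.01 and 2.75 CPM in *cbp80*. Each mutant library was below each WT library, and the *se-1* libraries were below those of both other mutants. The mean in *se-1* was 7.43% of that in WT, and 20.9% and 25.4% in *cbp20* and *cbp80*. The log2 fold change against WT was -3.75 ± 0.25 (± standard error, here and below) in *se-1*, with -2.26 ± 0.18 in *cbp20* and -1.99 ± 0.20 in *cbp80*. The *se-1* values rest on 30, 15 and 20 read pairs. In whole seedlings, fewer cells that express a gene and less RNA in each of them cannot be told apart.

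AT4 (AT5G03545, chromosome 5 from 894582 to 895517, intronless), the other decoy, was at 108, 150 and 188 CPM in WT, at 17.2, 14.5 and 14.2 CPM in *se-1*, at 20.0, 35.8 and 32.5 CPM in *cbp20*, and at 33.6, 31.3 and 22.5 CPM in *cbp80*. The *se-1* values rest on 265 to 342 read pairs per library. All 9 mutant libraries were below WT, *se-1* was below the other mutants, and *cbp20* and *cbp80* overlapped. Its log2 fold change was -3.28 ± 0.17 in *se-1*, with -2.35 ± 0.20 in *cbp20* and -2.36 ± 0.17 in *cbp80*.

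PHO2 (AT2G33770, chromosome 2 from 14277558 to 14283113, 8 introns), the ubiquitin-conjugating enzyme that miR399 targets, had the smallest fold change of the 10 genes in *se-1*, but not in the other mutants. It was at 213, 221 and 254 CPM in WT, at 200, 201 and 201 CPM in *se-1*, at 178, 188 and 168 CPM in *cbp20*, and at 175, 177 and 163 CPM in *cbp80*. All mutant libraries were below WT, and *se-1* was here the highest of the mutants, above all libraries of the other 2. The log2 fold change was -0.19 ± 0.07 in *se-1*, with -0.37 ± 0.08 in *cbp20* and -0.42 ± 0.07 in *cbp80*.

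SPX1 (AT5G20150, chromosome 5 from 6802282 to 6803655, 2 introns), an inhibitor of PHR1 and itself a starvation gene, was at 102, 131 and 151 CPM in WT, at 34.3, 25.8 and 28.8 CPM in *se-1*, at 38.6, 50.1 and 45.2 CPM in *cbp20*, and at 57.3, 56.0 and 43.6 CPM in *cbp80*. No mutant library reached the WT range, and *se-1* was again below both other mutants. The log2 fold change was -2.11 ± 0.13 in *se-1*, with -1.52 ± 0.12 in *cbp20* and -1.29 ± 0.12 in *cbp80*. Its relative SPX3 (AT2G45130, chromosome 2 from 18606410 to 18607853, 2 introns) was the least abundant gene, at 2.31, 2.85 and 4.39 CPM in WT, then 0.756, 0.185 and 0.321 CPM in *se-1*, 0.954, 0.993 and 0.698 CPM in *cbp20*, and 1.61, 1.40 and 1.23 CPM in *cbp80*. All mutant libraries were below WT, and the *se-1* libraries held only 15, 4 and 6 read pairs of it. Its log2 fold change was -2.91 ± 0.39 in *se-1*, with -1.82 ± 0.27 in *cbp20* and -1.18 ± 0.25 in *cbp80*. Without *se-1* replicate 1, the highest of that group, the value in *se-1* was -3.64.

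PHT1;1 (AT5G43350, chromosome 5 from 17399769 to 17402158, 2 introns), a phosphate importer of the plasma membrane, was at 40.1, 38.1 and 36.7 CPM in WT, at 30.0, 25.5 and 22.4 CPM in *se-1*, at 29.0, 29.8 and 29.3 CPM in *cbp20*, and at 33.5, 34.6 and 27.5 CPM in *cbp80*. All mutant libraries were below WT by a small step, with log2 fold changes of -0.56 ± 0.09, -0.38 ± 0.06 and -0.27 ± 0.08 in the same order. PHT1;1 has near-identical paralogs, and pairs that aligned to several places were not counted, so its level covers the part of the gene that can be told apart. PHT1;2, one such paralog (named after its values were seen), was at 1.33 ± 0.305 CPM in WT, 0.562 ± 0.0754 CPM in *se-1*, 0.438 ± 0.0604 CPM in *cbp20* and 1.59 ± 0.474 CPM in *cbp80*.

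PHT1;4 (AT2G38940, chromosome 2 from 16257157 to 16260253, 1 intron), a transporter of the same family, was at 31.0, 40.4 and 45.5 CPM in WT, at 14.6, 12.5 and 14.5 CPM in *se-1*, at 18.9, 27.7 and 22.6 CPM in *cbp20*, and at 35.9, 35.6 and 26.7 CPM in *cbp80*. The libraries of *se-1* and *cbp20* were below WT, and those of *cbp80* overlapped with it. The log2 fold change was -1.49 ± 0.13 in *se-1*, with -0.76 ± 0.14 in *cbp20* and -0.25 ± 0.13 in *cbp80*.

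SQD2 (AT5G01220, chromosome 5 from 86543 to 90117, 11 introns) makes the sulfolipid that stands in for phospholipids when phosphate is short. It was at 158, 172 and 199 CPM in WT, at 97.9, 86.5 and 95.3 CPM in *se-1*, at 128, 129 and 155 CPM in *cbp20*, and at 152, 169 and 158 CPM in *cbp80*. As for PHT1;4, *cbp80* overlapped with WT and the other mutants did not. The log2 fold change was -0.92 ± 0.08 in *se-1*, with -0.36 ± 0.09 in *cbp20* and -0.14 ± 0.08 in *cbp80*.

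MGD3 (AT2G11810, chromosome 2 from 4743162 to 4746813, 6 introns), a synthase of the galactolipids that replace phospholipids, was at 5.46, 7.64 and 8.79 CPM in WT, at 1.46, 0.786 and 0.963 CPM in *se-1*, at 2.97, 2.71 and 4.40 CPM in *cbp20*, and at 3.06, 4.29 and 2.51 CPM in *cbp80*. It separated *se-1* from the other mutants, with log2 fold changes of -2.77 ± 0.24 in *se-1*, with -1.14 ± 0.20 in *cbp20* and -1.15 ± 0.20 in *cbp80*. PS2 (AT1G73010, chromosome 1 from 27464528 to 27466348, 3 introns), a phosphatase also known as PPsPase1, was at 22.6, 27.1 and 35.6 CPM in WT, at 3.98, 2.77 and 3.10 CPM in *se-1*, at 5.76, 6.23 and 8.59 CPM in *cbp20*, and at 7.51, 10.6 and 7.03 CPM in *cbp80*. All mutant libraries were below WT, and the log2 fold change was -3.11 ± 0.18 in *se-1*, with -2.07 ± 0.17 in *cbp20* and -1.76 ± 0.17 in *cbp80*.

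**Figure D1:**
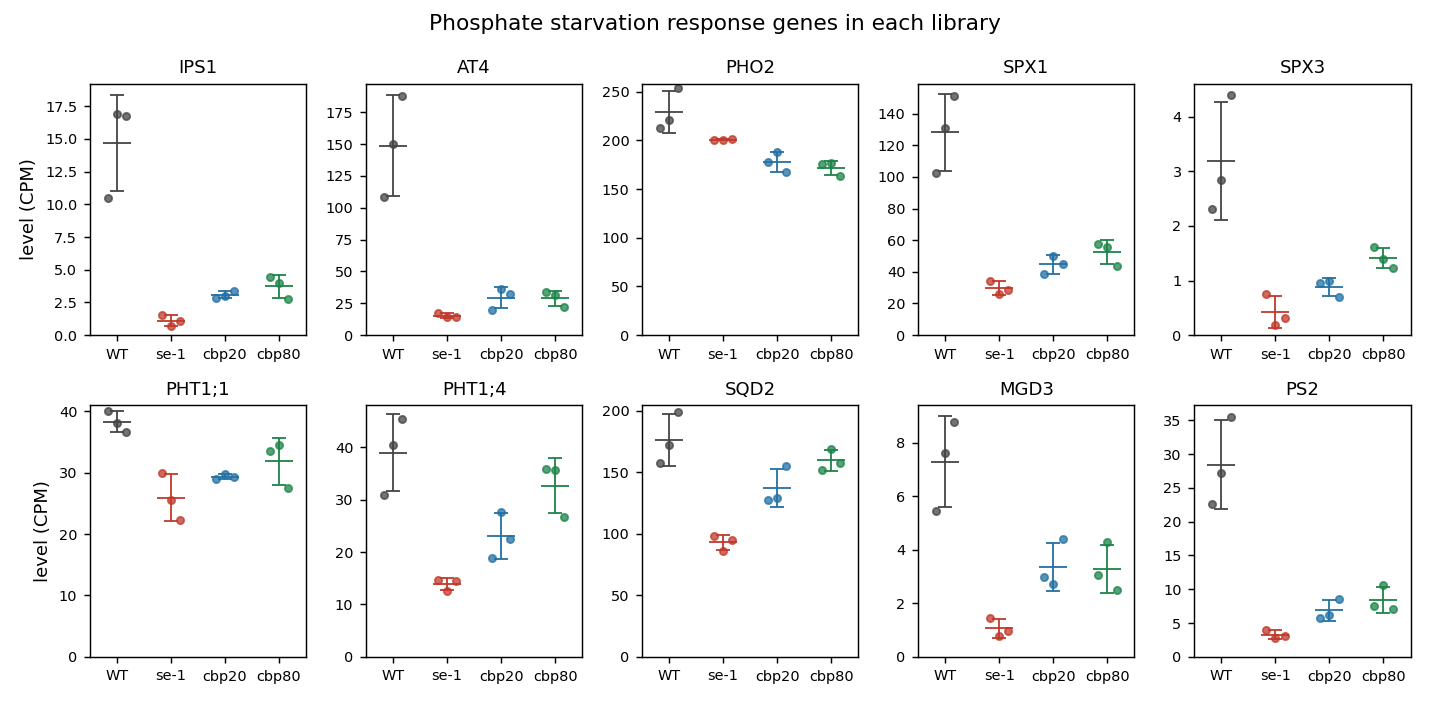
Level of each of the 10 genes (CPM, linear axis from 0, own scale in each panel) in WT, *se-1*, *cbp20* and *cbp80*. Points are libraries in the order of their replicate numbers, and bars are the mean and SD of 3 libraries. WT had the highest mean in all 10 genes and *se-1* the lowest in 9, with PHO2 as the exception.

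Across the 10 genes, WT had the highest mean in each and *se-1* the lowest in 9. In 8 genes all 9 mutant libraries were below all 3 WT libraries. PHT1;4 and SQD2 were the others, through *cbp80*. Replicates of WT were not alike: WT replicate 1 was the lowest WT library in 9 genes and WT replicate 3 the highest in 8. Without either library in turn, the fold changes of all 10 genes kept their sign in each mutant.

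**Figure D2:**
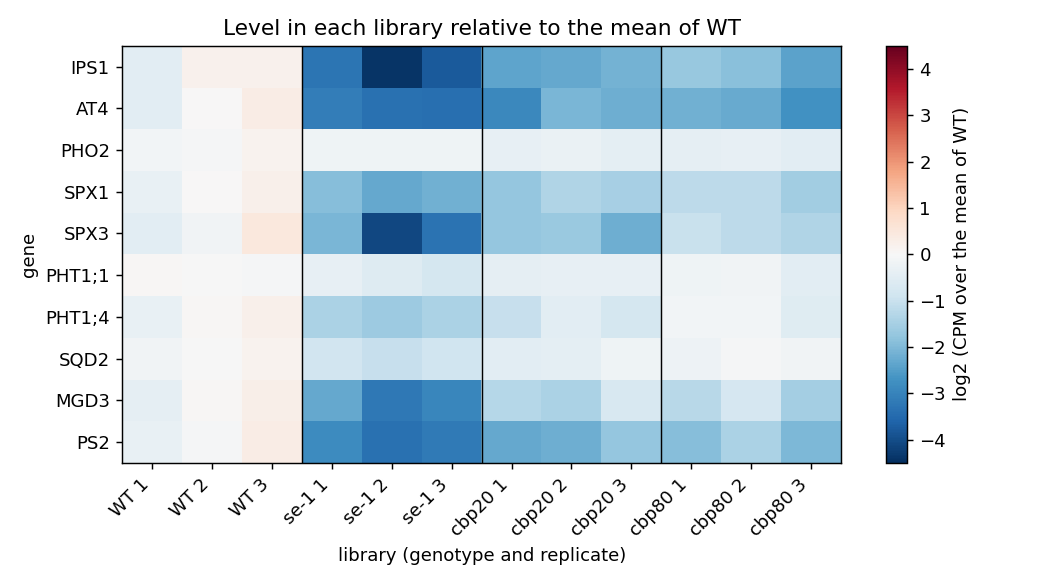
Level of the 10 genes (rows) in the 12 libraries (columns) as log2 of CPM over the mean CPM of WT, from blue (lower) over white (equal) to red (higher). IPS1 in *se-1* replicate 2 was lowest at -4.41, and WT replicate 1 was on the blue side in the genes other than PHT1;1.

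At an adjusted p under 0.05 (edgeR's quasi-likelihood test on 3 against 3 libraries), 9 of the 10 genes were called in *se-1*, with 10 in *cbp20* and 8 in *cbp80*, all lower. Of all tested genes, 16.2% were called lower in *se-1*, with 9.48% in *cbp20* and 18.6% in *cbp80*. The genes not called were PHO2 in *se-1*, and PHT1;4 and SQD2 in *cbp80*. PHO2 in *se-1* was called with DESeq2, in 1 fit of all 12 libraries, with scaling to library size only, without the filter, with a replicate block and without WT replicate 1. The libraries lay below those of WT in 10, 10 and 8 genes, where 23.2%, 17.8% and 24.7% of the tested genes did. The median log2 fold change of the 10 genes was -2.44 in *se-1*, with -1.33 in *cbp20* and -1.17 in *cbp80*, and that of all tested genes was 0.00, 0.00 and -0.01. Because the genes were chosen on these contrasts, nothing is read from these counts. The 3 comparisons share the WT libraries, so their values are given side by side only.

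**Figure D3:**
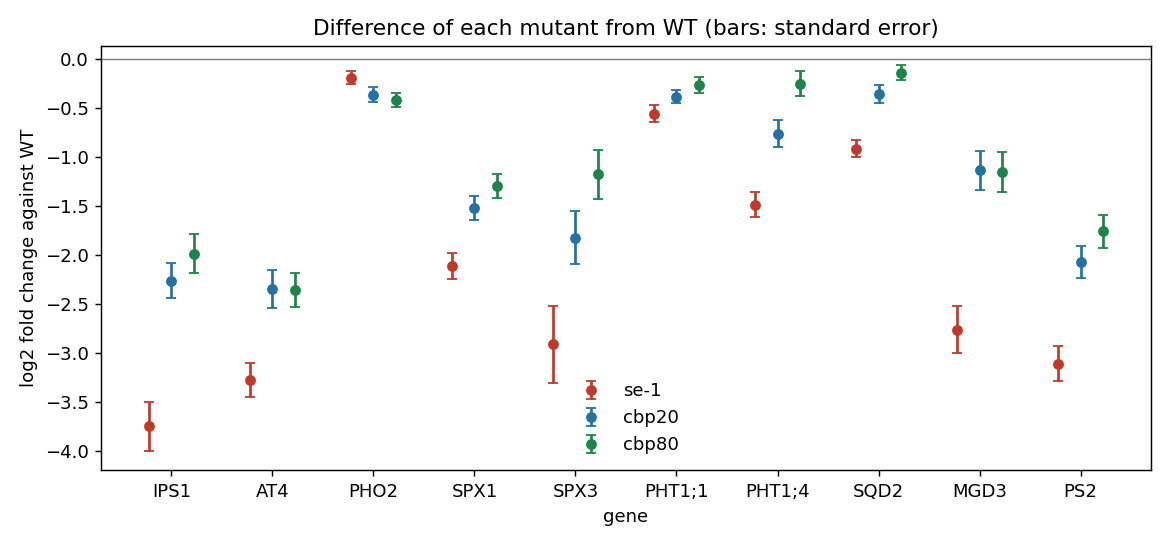
Log2 fold change of each gene against WT in *se-1* (red), *cbp20* (blue) and *cbp80* (green), with standard errors as bars and 0 as the line of no difference. The fold changes run from -3.75 (IPS1 in *se-1*) to -0.14 (SQD2 in *cbp80*).

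The mutants were also set against each other in 1 fit of all 12 libraries, in which the WT libraries cancel. IPS1 was lower in *se-1* than in *cbp20* by a log2 fold change of -1.49 ± 0.30, MGD3 by -1.63 ± 0.30, SPX3 by -1.09 ± 0.44 and PS2 by -1.04 ± 0.23. PHT1;4 differed by -0.73 ± 0.16 and SPX1 by -0.59 ± 0.14, while PHO2 was higher in *se-1*, by 0.17 ± 0.07. Of the 10 genes, 7 lay below *cbp20* in all *se-1* libraries (14.9% of all tested genes did), SPX3 and PHT1;1 overlapped, and PHO2 was above. Against *cbp80*, 8 of the 10 lay below in all *se-1* libraries (15.1% of all tested genes), the differences of IPS1, SPX3 and MGD3 being -1.77 ± 0.29, -1.74 ± 0.40 and -1.61 ± 0.30. *cbp80* and *cbp20*, the mutants named for different subunits of the same complex, overlapped in 9 of the 10 genes. Groups that did not overlap made up 27.7% of all tested genes in this comparison. SPX3 was higher in *cbp80* by 0.65 ± 0.34 without overlap, and PHT1;4 by 0.51 ± 0.15 with overlapping libraries.

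The 10 genes did not all vary alike, and with the genotype means included PHO2 stood apart. Over the 12 libraries, which share their genotypes, the Pearson r of log2(CPM + 1) over the 45 pairs had a median of 0.878 and was highest between IPS1 and SPX1, at 0.992. PHO2 was the gene least like the others, with r from 0.103 (with SQD2) to 0.65 (with AT4). Among pairs without PHO2, the lowest r was 0.761, between PHT1;1 and SQD2. With the genotype means removed, the median r over the pairs was 0.604. PHO2 then no longer stood apart, with r from 0.071 (with PHT1;1) to 0.743 (with SPX3). For PHT1;1, r then ran from -0.016 (with SQD2) to 0.402 (with SPX1). Fold change and intron number did not follow a single order. The intronless IPS1 and AT4 were among the most lowered genes. In *se-1*, PS2 with 3 introns, SPX3 with 2 and MGD3 with 6 followed. PHO2 with 8 introns, PHT1;1 with 2 and SQD2 with 11 were the least lowered there. PHT1;4 with 1 intron (-0.25 ± 0.13) and PHT1;1 (-0.27 ± 0.08) were less lowered in *cbp80* than PHO2 (-0.42 ± 0.07).

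Outside the 10 genes, those whose pattern over the 12 libraries was most like each member were sought among 19217 other genes of at least 1 CPM. For SPX1 the nearest were AT4G23000 (r = 0.985) and SQD1 (r = 0.983), which makes the head group precursor that SQD2 uses. The same pair was nearest to PS2, at r = 0.981 for AT4G23000 and r = 0.982 for SQD1. For PHT1;4 they were AT5G20790 (r = 0.965) and GDPD1 (r = 0.963), a phosphodiesterase of lipid remodelling. IPS1 was nearest to AT1G61260 (r = 0.983) and to PPa5 (r = 0.98), and AT4 to the annexin gene ANNAT1 (r = 0.981) and to AT1G14430 (r = 0.978). The nearest genes of SQD2 were CRF11 (r = 0.971) and DOGT1 (r = 0.968), those of MGD3 BIP1 (r = 0.965) and AT1G23130 (r = 0.964). SPX3 was nearest to AT4G16490 (r = 0.974) and TRM18 (r = 0.965), PHT1;1 to TRM18 (r = 0.96) and AT3G49960 (r = 0.945), and PHO2 to BZIP17 (r = 0.936) and RIPK (r = 0.93). These r are descriptions over libraries of 4 genotypes.

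The rest of the pathway was followed through 67 genes that are no members: regulators, root response genes, miRNA loci, transporters, lipid enzymes, and phosphatases, ribonucleases and kinases that save or free phosphate. Of them, 56 had enough counts for the test in *se-1* and *cbp20*, and 57 in *cbp80*. This list too was made with earlier results of these data known, so its counts and adjusted p-values, here and below, are a description. In *se-1*, 28 of 56 were lower (beside 16.2% of all tested genes) and 10 higher (17.9% beside 17.6%). In *cbp20*, 23 were lower (41.1% beside 9.48%) and 6 higher (10.7% beside 10.2%), and in *cbp80*, 22 were lower (38.6% beside 18.6%) and 14 higher (24.6% beside 20.1%). The higher calls include MIR399C in each mutant and MIR827 in *cbp80*, described below. The lower calls include PHT1;8 and MYB62 in each mutant and PHT1;2 in *cbp20*. These had enough counts for the test only through their WT libraries, so their calls are no support. The median log2 fold change of the tested genes was -0.33 in *se-1*, with -0.19 in *cbp20* and -0.09 in *cbp80*.

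**Figure D4:**
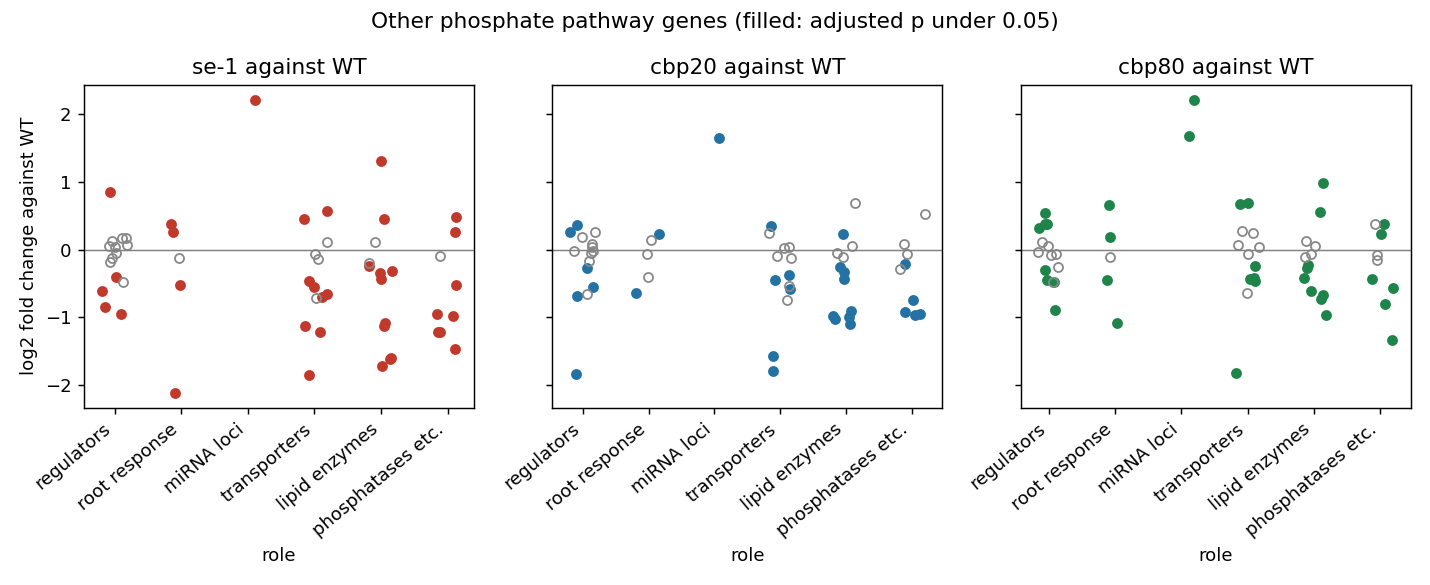
Log2 fold change against WT of the tested genes among the 67 other pathway genes, by role, in *se-1*, *cbp20* and *cbp80*. Filled points have an adjusted p under 0.05, and open points do not. Lipid enzymes lay mostly below 0, with 9, 8 and 7 of 13 called lower (beside 16.2%, 9.48% and 18.6% of all tested genes). Regulators lay on both sides.

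Among the 15 regulators, 4 were lower in each mutant, and 1, 2 and 4 were higher in *se-1*, *cbp20* and *cbp80*. Of all tested genes, 16.2%, 9.48% and 18.6% were lower and 17.6%, 10.2% and 20.1% higher, in the same order. The transcription factors at the head of the pathway were close to WT: PHR1 had 64.2 CPM in WT and log2 fold changes of 0.04 ± 0.06, 0.03 ± 0.06 and 0.11 ± 0.06 in *se-1*, *cbp20* and *cbp80* (adjusted p = 0.642, 0.75 and 0.148, edgeR), and PHL1 had 0.07 ± 0.07, -0.01 ± 0.08 and -0.06 ± 0.10. The inhibitor SPX2, at 37.8, 44.4 and 51.3 CPM in WT, fell in all 3 mutants, by log2 fold changes of -0.85 ± 0.10, -0.56 ± 0.11 and -0.48 ± 0.10 (edgeR adjusted p = 3.81e-05, 0.00207 and 0.00163). SPX4, another SPX protein, was higher in *cbp80* by 0.31 ± 0.10 (edgeR adjusted p = 0.0232) and had 0.16 ± 0.11 in *se-1* and 0.18 ± 0.10 in *cbp20*, neither called. NLA, a ubiquitin ligase that acts on phosphate transporters and is a known target of miR827, was at 12.7, 10.9 and 12.3 CPM in the WT libraries and rose to a mean of 21.6 ± 3.22, 15.4 ± 1.03 and 17.5 ± 0.849 CPM, or by 0.85 ± 0.11, 0.36 ± 0.09 and 0.54 ± 0.09 on the log2 scale (edgeR adjusted p = 7.09e-05, 0.0133 and 0.000222).

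The 6 MIR399 loci together held 7, 6 and 5 read pairs in the WT libraries, 24, 30 and 27 in *se-1*, 25, 19 and 25 in *cbp20*, and 43, 42 and 32 in *cbp80*. These reads come from poly(A) RNA of the primary transcripts, and mature miRNAs were not measured. All mutant libraries were above WT. The read pairs were few in every library, and the WT sums were close to the floor of 3 counts. MIR399C, with the most reads, had 6, 3 and 4 pairs in WT, 20, 17 and 19 in *se-1*, 15, 15 and 13 in *cbp20*, and 22, 16 and 23 in *cbp80*. It entered the test through its mutant libraries only, so it could be tested only because it was higher there, and its call as higher in each mutant is no support. Its log2 fold changes were 2.21 ± 0.38, 1.65 ± 0.39 and 2.21 ± 0.39. MIR399D had 1, 0 and 0 pairs in WT and 12, 18 and 8 in *cbp80*, and was too rare to be tested, as were MIR399A, MIR399B and MIR399F with 0 to 6 pairs per library. MIR399E had 0 pairs in every library. MIR827 had 7, 1 and 5 pairs in WT, 6, 9 and 5 in *se-1*, 5, 8 and 7 in *cbp20*, and 14, 15 and 13 in *cbp80*. The libraries of *se-1* and *cbp20* overlapped with WT and had too few pairs for the test, and in *cbp80* its log2 fold change was 1.68 ± 0.47, where it too was tested through the mutant libraries only.

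Of the 17 transporters and trafficking genes, 13 were tested. In *se-1*, *cbp20* and *cbp80*, 7, 5 and 5 were lower (beside 16.2%, 9.48% and 18.6% of all tested genes). Higher were 2, 1 and 2 (beside 17.6%, 10.2% and 20.1%). PHO1, which loads phosphate into the xylem, was lower in *se-1* (-0.46 ± 0.07, edgeR adjusted p = 0.000216) and in *cbp80* (-0.46 ± 0.06, edgeR adjusted p = 1.46e-05) and had -0.12 ± 0.07 in *cbp20*. *cbp80* and *cbp20* differed directly in PHO1, by -0.34 ± 0.07 (edgeR adjusted p = 0.00506). PHT5;1, which carries phosphate into the vacuole, rose in all 3, by 0.44 ± 0.07, 0.35 ± 0.06 and 0.68 ± 0.05 on the log2 scale (edgeR adjusted p = 0.000222, 0.000583 and 2.15e-07). Among the 5 root response genes, the malate channel ALMT1 had 17.1, 16.4 and 15.2 CPM in WT, then 3.88, 3.24 and 4.12 CPM in *se-1*, 10.2, 10.7 and 10.2 CPM in *cbp20*, and 6.69, 7.36 and 8.84 CPM in *cbp80*. The 4 genotypes did not overlap in ALMT1, and its log2 fold changes were -2.12 ± 0.11, -0.65 ± 0.09 and -1.08 ± 0.11 (edgeR adjusted p = 5.36e-08, 0.00012 and 2.7e-06).

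Of 13 lipid enzymes tested, 9 were lower in *se-1*, with 8 in *cbp20* and 7 in *cbp80* (beside 16.2%, 9.48% and 18.6% of all tested genes), and 2, 1 and 2 were higher. SQD1, which makes the substrate of SQD2, was at 124, 149 and 178 CPM in WT, then 69.2, 66.6 and 69.5 CPM in *se-1*, 77.5, 79.5 and 84.2 CPM in *cbp20*, and 91.1, 98.2 and 82.4 CPM in *cbp80*. All mutant libraries were below WT, and SQD1 fell by -1.13 ± 0.10, -0.90 ± 0.10 and -0.73 ± 0.10 on the log2 scale (edgeR adjusted p = 4.59e-06, 2.68e-05 and 7.78e-05). MGD2, a close relative of MGD3, fell by -1.73 ± 0.18, -0.99 ± 0.15 and -0.96 ± 0.14 (edgeR adjusted p = 1.39e-05, 0.000443 and 0.000123). The phospholipase NPC4 fell by -1.08 ± 0.17, -1.03 ± 0.17 and -0.67 ± 0.16 (edgeR adjusted p = 0.00042, 0.000787 and 0.00491). The phospholipase PLDZ2 fell from a mean of 12.3 CPM in WT to 4.02, 6.14 and 9.15 CPM in the mutants (edgeR adjusted p = 1.01e-05, 0.000166 and 0.0177), and its call in *cbp80* was lost without WT replicate 2, WT replicate 3 or *cbp80* replicate 2. GDPD1 fell by -1.62 ± 0.12, -1.10 ± 0.13 and -0.61 ± 0.12, and its exons overlap those of a neighbour. GDPD6, of the same family, was higher in *se-1* by 1.31 ± 0.26 and in *cbp80* by 0.99 ± 0.24 (edgeR adjusted p = 0.00178 and 0.00489).

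All 9 phosphatases, ribonucleases and kinases were tested. In *se-1*, *cbp20* and *cbp80*, 6, 5 and 4 were lower (beside 16.2%, 9.48% and 18.6% of all tested genes). Higher were 2, 0 and 2 (beside 17.6%, 10.2% and 20.1%). The acid phosphatases PAP17 and PAP12 fell in each mutant, PAP17 by -1.22 ± 0.13, -0.95 ± 0.15 and -0.56 ± 0.13 and PAP12 by -0.98 ± 0.12, -0.75 ± 0.11 and -0.81 ± 0.11. PECP1, a phosphatase of phosphocholine, fell by -1.46 ± 0.13 in *se-1* and -0.97 ± 0.15 in *cbp20* and had -0.16 ± 0.13 in *cbp80* (edgeR adjusted p = 4.44e-06, 0.000396 and 0.382). It was higher in *cbp80* than in *cbp20* by 0.81 ± 0.16 (edgeR adjusted p = 0.00273). PPCK1, a kinase of phosphoenolpyruvate carboxylase, fell by -1.22 ± 0.09 in *se-1*, with -0.93 ± 0.09 in *cbp20* and -1.34 ± 0.08 in *cbp80*. In PPCK1, *se-1* and *cbp80* overlapped, with a direct difference of 0.12 ± 0.10 (edgeR adjusted p = 0.536). PPCK1 was lower in *cbp80* than in *cbp20* by -0.41 ± 0.10 (edgeR adjusted p = 0.014), the opposite order to PECP1.

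Directly between mutants, 12 of the 57 tested pathway genes differed between *se-1* and *cbp20* (21.1%, beside 13.6% of all tested genes), 8 of them lower in *se-1* (14%, beside 6.24%). Without *se-1* replicate 3 the number was 6. Between *se-1* and *cbp80*, 17 differed (29.8%, beside 11.4%), all 17 lower in *se-1* (beside 5.95%), and between *cbp80* and *cbp20*, 15 differed (26.3%, beside 10.2%), 11 of them higher in *cbp80* (19.3%, beside 5.99%).

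Much of the phosphate response takes place in roots, and the make-up of the seedlings was read from marker genes. The summed level of 16 root markers was 3211 to 3402 CPM in WT, 1768 to 1998 CPM in *se-1*, 2540 to 2845 CPM in *cbp20* and 2338 to 2521 CPM in *cbp80*. Most of this sum is the glucosidase gene PYK10, at 3051 CPM in WT, compared with 1673 CPM in *se-1*. Without PYK10 the other 15 markers summed to 220 to 329 CPM in WT, 223 to 257 CPM in *se-1*, 238 to 279 CPM in *cbp20* and 277 to 291 CPM in *cbp80*, and every mutant overlapped with WT. PRP3 weighs most in this sum, at 144 CPM in WT and 130, 129 and 152 CPM in *se-1*, *cbp20* and *cbp80*. Gene by gene, 5 root markers were lower and 2 higher of 15 tested in *se-1*, 1 lower and 5 higher of 16 in *cbp20*, and 2 lower and 5 higher of 15 in *cbp80*. Of all tested genes, 16.2%, 9.48% and 18.6% were lower and 17.6%, 10.2% and 20.1% higher, in the same order. Of 6 root hair genes, EXPA7, EXPA18, COBL9 and LRX1 were lower in *se-1*, by -0.47 ± 0.16 to -0.55 ± 0.15 for the first 3 and -0.41 ± 0.08 for LRX1, while PRP3 at -0.14 ± 0.17 and RSL4 at 0.18 ± 0.17 were not called (edgeR adjusted p = 0.567 and 0.457). The endodermis gene CASP4 was higher in each mutant. The summed level of 10 leaf markers was 35874 to 38712 CPM in WT, 52561 to 56248 CPM in *se-1*, 42419 to 47070 CPM in *cbp20* and 46359 to 49668 CPM in *cbp80*. Of these markers, 6, 3 and 6 were called higher in *se-1*, *cbp20* and *cbp80*, while GLK1 was called lower in each. LHCB1.1 had a mean of 1725 CPM in WT, compared with 8153, 3809 and 4821 CPM in the mutants in the same order. LHCB1.3, the most abundant of these markers, had 15685 CPM in WT, compared with 16313, 17062 and 14849 CPM. LHCB1.3, CA1 and GAPA were called in no mutant. The 5 flower markers summed to 1.64 to 2.04 CPM in WT and 4.21 to 4.84 CPM in *se-1*. Their sum was 2.09 to 2.53 CPM in *cbp20* and 3.06 to 3.95 CPM in *cbp80*. SEP3 was called higher in each mutant. AP1 was at 1.11 CPM in *se-1* (0.0158 CPM in WT and 0.0465 CPM in *cbp80*, both under the floor). In each mutant the root sum with PYK10 was below WT and the leaf sum above it, and their part in the lower levels of the 10 genes was not tested. With PYK10 the root sum was lower in *cbp80* than in *cbp20*. Without PYK10 its mean was higher in *cbp80*, at 283 ± 7.02 CPM compared with 258 ± 20.1 CPM in *cbp20*. Much of this difference is PRP3, at 152 CPM in *cbp80* compared with 129 CPM in *cbp20*.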

How the data were processed

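Per the labels and the table header, Bowtie2 2.1.0 served the authors to remove rRNA and tRNA, after which they aligned the other reads to TAIR10 with TopHat2 2.1.1 and counted read pairs on exons with featureCounts 1.5.0-p3. The deposited values are raw counts. Strand was not used, so sense and antisense reads cannot be told apart, and pairs with several alignments or on several genes were not counted. The 10 genes share no exon bases with other genes. The deposited DESeq2 results (fold changes and p-values of the authors) were not used.

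Members and lists were chosen with earlier results of these data known. Counts were scaled by TMM in edgeR 4.0.16 (R 4.3.3). A gene entered the quasi-likelihood test if 3 or more fitted libraries held 10 or more counts, Benjamini-Hochberg adjustment ran over all genes tested, and the threshold was 0.05. Each mutant was fitted with WT, and mutants against each other in a fit of all 12 libraries. The standard error is the fold change over the square root of F. The scripts were tested on simulated counts. Alternatives were other scalings, no filter, DESeq2 1.42.0 on the counts, 1 fit of all libraries, a replicate block and leaving out each library.

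Named besides the 10 genes were the miRNA loci, PHR1, PHL1, SPX2, SPX4, NLA, PHO1 and, for each mutant, the 8 called pathway genes of largest fold change with at least 1 CPM on average, plus for each member the 2 genes of highest r. PHT1;2, PHT1;8 and MYB62 were named after their values were seen.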

Additional observations from a re-analysis of the deposited data

How the results depend on the processing

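The number of the 10 genes called was 9 to 10 in *se-1*, 10 in *cbp20* and 8 to 9 in *cbp80* over the other scalings, no filter, DESeq2, 1 fit of all 12 libraries and the replicate block. Leaving out each library gave 9 to 10, 9 to 10 and 7 to 9. The log2 fold changes of the 10 genes kept their sign under all these settings, and of 360 values, 359 moved by less than the spread between replicates. The exception is SPX3 in *se-1*, at -3.64 without *se-1* replicate 1. The count of pathway genes lower than WT ranged over the left-out libraries from 25 to 28 in *se-1*, 18 to 25 in *cbp20* and 16 to 21 in *cbp80*, and the count higher from 9 to 10, 4 to 6 and 11 to 16. Between mutants these ranges were 6 to 13 (*se-1* and *cbp20*), 12 to 17 (*se-1* and *cbp80*) and 10 to 14 (*cbp80* and *cbp20*). The 6 came from leaving out *se-1* replicate 3, and the cause was not tested. Scaling to library size only gave 32, 25 and 26 lower pathway genes and, over all genes, 5074 lower and 2649 higher calls in *se-1* in place of 3319 and 3602, 2608 and 1676 in *cbp20* in place of 1941 and 2090, and 5529 and 3130 in *cbp80* in place of 3830 and 4125. The median of all genes then moved to -0.09, -0.05 and -0.08. SPX4 in *cbp80* was not called under library size only, nor without WT replicate 1 or 2 or *cbp80* replicate 2, and NLA in *cbp20* not without WT replicate 2. MIR399C and MIR827 gave no value without a mutant library, because too few libraries then passed the filter.

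The series' design sets each mutant library against the WT library of the same number, but names no shared batch or day. The numbers were not taken as pairing, since the deviations of same-numbered libraries from their group means correlated at -0.067 to 0.148 over 18 pairs. With the replicate block, 29, 24 and 21 pathway genes were lower and 10, 7 and 14 higher in *se-1*, *cbp20* and *cbp80*, 10, 10 and 8 of the 10 genes were called (PHO2 in *se-1* being the one added), and 13, 17 and 15 pathway genes differed between *se-1* and *cbp20*, *se-1* and *cbp80*, and *cbp80* and *cbp20*. Depth limits SPX3 in *se-1* and the miRNA loci, which had few reads.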
